A study of Drosophila melanogaster with 2 samples.

Results

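The cytosolic ribosomal protein genes were examined here for peaks of a GFP-tagged homeobrain protein in the Drosophila melanogaster embryo. They were taken as the protein-coding genes whose symbol begins with RpL or RpS, without the S6 kinase genes and without the mitochondrial ribosomal proteins. This gave 92 genes, 54 of the large and 38 of the small subunit, of 13968 protein-coding genes on the chromosome arms X, 2L, 2R, 3L, 3R, 4 and Y. The series holds 1 group, whole embryos 0 to 18 h old from a transgenic line that carries an hbn-eGFP fusion, with 2 biological replicates and chromatin precipitated with an antibody to GFP. The gene hbn encodes a paired-like homeodomain transcription factor of the embryonic brain. Whole embryos mix all cell types and ages, and no sample without the fusion was analysed here.

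Ribosomal proteins fold and hold the RNAs of the ribosome, and their genes are among the most actively transcribed in growing cells. Loss of a single copy of many of them gives the Minute phenotype in flies, with slow development and thin bristles. Their promoters mostly lack a TATA box and start transcription in a run of pyrimidines, the TCT initiator, which the TBP-related factor TRF2 serves in flies. Many also carry the DNA replication-related element, TATCGATA, which the factor DREF binds, and whose core also holds the CGATA sequence known to be bound by the insulator protein BEAF-32. A paired-like homeodomain is known for TAAT-type sequences such as TAATTA.

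The sequences that recur at the summits of these genes are shown first, since later counts refer to them. The lines give, for 7 of the 10 genes with the strongest summit, 30 bases of the gene's strand around the TATCGA that lies nearest to that summit; capitals mark TATCGA, or TATCGATA where the match goes on. In genomic order the windows are chr2L:8364642-8364671 for RpS13 and chr2L:9897586-9897615 for RpS2, both on the minus strand, chr3L:18898851-18898880 for RpL26 on the plus strand, and chr3R:9778045-9778074 for RpS29, also on the plus strand. RpL32 at chr3R:30046172-30046201 and RpS7 at chr3R:30209010-30209039 are on the minus strand, and RpS10b at chrX:19597790-19597819 is on the plus strand. Positions are on Release 6 of the genome (dm6), and the sequence is RefSeq's copy of that assembly.
RpL32: cgacgcacgacgTATCGAtgttttttcaca
RpS2: tatttgtatataTATCGAtttcccatacga
RpS29: aatcgtggaaaaTATCGATActgccacccc
RpL26: atgacagtgtTATCGATActagctgaatta
RpS13: taagcatcccgtTATCGATAgctgctttga
RpS10b: caccattgtcgcTATCGAatgcccaagtat
RpS7: ctcctgcaactgTATCGATAgtatcgcaca
RpS29, RpL26, RpS13 and RpS7 carry the whole TATCGATA, whereas RpL32, RpS2 and RpS10b carry the 6-base core alone at that place.

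The second recurring feature is the initiator. The next lines give 45 bases of the gene's strand for 6 genes, from 20 bases before the annotated canonical start to 24 bases after it, to show a gene with a summit (RpL27, RpL6 and RpL8) beside one without (RpL3, RpS3 and RpL24); these 6 were chosen after their values were seen. Capitals mark CTTT with a T or C on each side of it, joined where matches overlap or touch. The windows are chr3R:25685027-25685071 for RpL27 and chr3R:31596180-31596224 for RpL6 on the minus strand, chr3L:2587436-2587480 for RpL8, chr3R:11221874-11221918 for RpL3 and chr3R:23358792-23358836 for RpS3 on the plus strand, and chr2L:13395068-13395112 for RpL24 on the minus strand.
RpL27: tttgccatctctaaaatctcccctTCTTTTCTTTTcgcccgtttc
RpL6: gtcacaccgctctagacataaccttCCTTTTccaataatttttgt
RpL8: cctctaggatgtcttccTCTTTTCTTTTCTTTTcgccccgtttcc
RpL3: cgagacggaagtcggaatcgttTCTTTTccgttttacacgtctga
RpS3: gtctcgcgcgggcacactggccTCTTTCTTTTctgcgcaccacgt
RpL24: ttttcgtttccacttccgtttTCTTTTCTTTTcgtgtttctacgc
Genes with and without a peak both carry the pyrimidine run close after the start.

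A summit lay at the promoter of about every other ribosomal protein gene. The main set was the deposited conservative set, peaks that kept their rank between the 2 replicates at an irreproducible discovery rate (IDR) of 0.01 or less. A summit of it fell within 500 bp of an own transcript start in 45 of 92 ribosomal protein genes (48.9%, Wilson 95% interval 38.9 to 59.0), against 3696 of 13968 protein-coding genes (26.5%). The own start was also the protein-coding start nearest to such a summit in 38 ribosomal protein genes (41.3%), against 20.1% of protein-coding genes. With the gene body and 5 kb to either side counted too, a summit was found for 73 ribosomal protein genes (79.3%), against 50.1% of protein-coding genes. Intervals count genes, which are not replicates of a condition, and the read depth behind the peaks is unknown.

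The count was much the same in the other deposited sets. The pooled set placed a summit in the window of 47 of 92 ribosomal protein genes (51.1%), against 26.6% of protein-coding genes; it held 4 genes that the conservative set lacked (RpL23, RpL30, RpS14a and RpS4) and lacked 2 that it had. Replicate 1 alone gave 44 (47.8%), against 24.5%, and replicate 2 alone gave 37 (40.2%), against 17.6%. The set of replicate 2 is the smaller, with 2189 peaks beside 3288 in that of replicate 1.

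Every gene fell into 1 of 4 classes. In 38 the own start was nearest to a summit in the window, in 7 all summits in the window lay nearer to the start of another gene, in 28 the gene had a summit only in its body or within 5 kb, and in 19 it had none. For 26 of those 28, the summit nearest to the gene was nearest to the start of some other gene, at a median distance over the 26 genes of 2293 bp from the ribosomal protein start and 57.5 bp from that other start. The exceptions were RpL12, a protein of the factor-binding region of the large subunit, and RpLP2, an acidic protein of the ribosomal stalk. With 1 summit counted per gene, the one whose signal is given, those just inside the window were at RpS19a at 499 bp, RpL37-1 at 344 bp and RpL6 at 211 bp, and just outside it lay the nearest summits of RpL12 at 502 bp, RpLP2 at 523 bp and RpS28-like at 579 bp. A window of 1000 bp adds RpL12 and RpLP2 to the genes whose own start is nearest.

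The signal of the peaks, the enrichment value of the peak caller on a scale that the sources do not state, spanned 75.8 to 791 at the 45 genes. Where a gene had several summits in the window, the value is that of the strongest one nearest to its own start. The median over the 45 genes was 167 (quartiles 127 and 275), against 150 over the 3696 protein-coding genes with a summit. Signals at or above 119, the median of all conservative peaks, were held by 35 of the 45 (77.8%), against 62.3% of the protein-coding genes with a summit. In the top 10% of conservative peaks by signal lay 8 of the 45 (17.8%), against 13.4% of those protein-coding genes.

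RpL32, a large subunit protein widely used as a reference gene in fly expression work, had the strongest peak of the family, with a signal of 791 and a rank of 9 among conservative peaks. Its summit lay 97 bp upstream of the start, and its signals were 473 in replicate 1 and 306 in replicate 2. Here and below, a replicate's signal is that of the entry with the nearest summit, within 200 bp, in the ranked list of that replicate alone. The next, at RpS2, the small subunit gene known as string of pearls for its role in oogenesis, reached 561, with 361 in replicate 1 and 204 in replicate 2. Its summit lay 43 bp upstream. Both genes stood above every other ribosomal protein gene in each replicate.

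Small subunit genes followed. The signal was 429 at RpS29 (248 in replicate 1 and 182 in replicate 2) and 423 at RpS30 (264 and 163 in the same order). RpS30, whose human counterpart is made as a fusion with a ubiquitin-like protein, had its summit 8 bp upstream of the start, and RpS29 had one 17 bp upstream. RpL26, which sits near the exit of the nascent peptide tunnel, had a signal of 396 (231 and 155). Its summit lay 86 bp downstream of its nearest start, the outer of 2 annotated starts, and upstream of its canonical start. Counted from the nearest own start, the summits of these 3 genes thus lay on both sides.

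The remaining genes of the 10 strongest were RpS13 at 349, RpS24 at 345, RpS10b at 331, RpS7 at 313 and RpL34a at 302. Their replicate 1 signals lay between 190 at RpS10b and 248 at RpS24, and their replicate 2 signals between 90.8 at RpL34a and 133 at RpS13. Summits lay upstream in all 5, at 33 bp for RpS13, 47 bp for RpS24, 190 bp for RpS10b, 32 bp for RpS7 and 101 bp for RpL34a. Of the 10 strongest, 7 were small subunit genes.

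**Figure D1:**
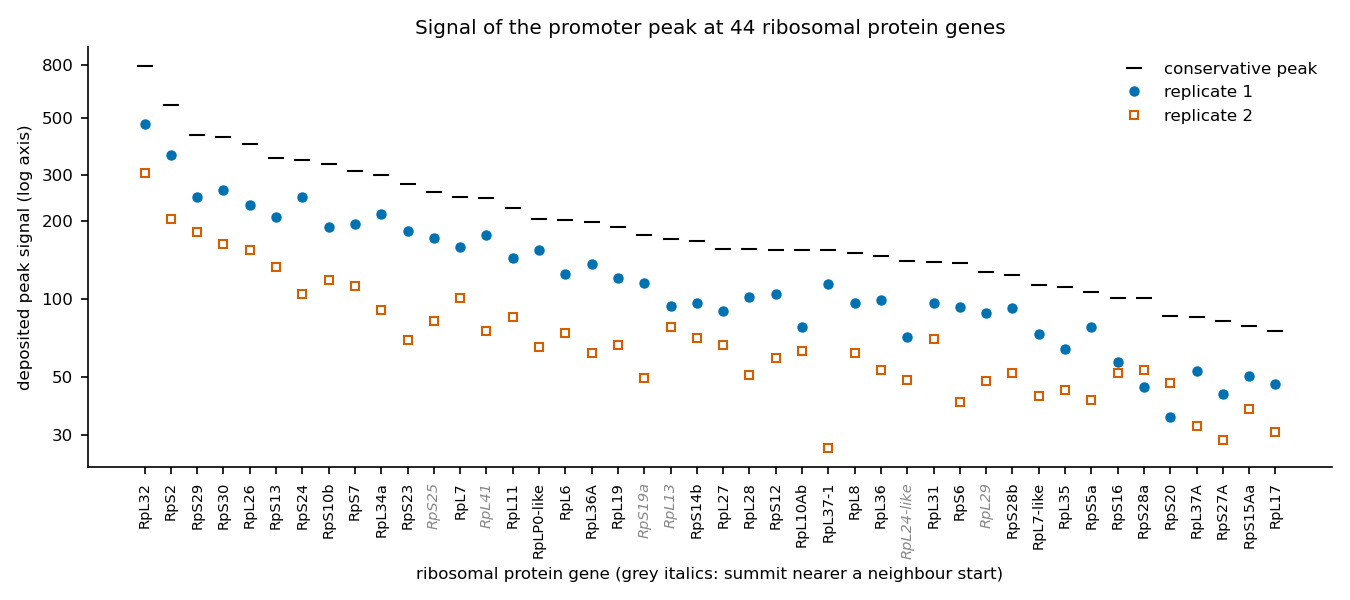
Signal of the promoter peak (log axis) at 44 of the 45 ribosomal protein genes with a summit within 500 bp of a start, ordered by signal; bars are the conservative peak, and points are the signals of replicate 1 and replicate 2 at the same place. RpL32 stands highest at 791 and RpL17 lowest at 75.8, and replicate 1 lies above replicate 2 at all of these genes but RpS20 and RpS28a.

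At the lower end stood RpL17 at 75.8, RpS15Aa at 78.7 and RpS27A at 82.8, and none of these 3 had a summit within 100 bp in the set of either replicate alone. RpS27A is made as a fusion with ubiquitin, and its summit lay 98 bp from its own start and the same distance from that of Ip259, a tie that was counted as own. RpL37A at 85.3 and RpS20 at 86.6 were each found in 1 replicate's set only. Genes at this end were named after their values were seen.

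Replicates ranked the genes alike. Over the 45 genes, the signals of the replicates had a Pearson correlation of 0.86 on the log2 scale and a Spearman correlation of 0.85, a description over genes whose peaks were selected for rank in both. The ratio of replicate 1 to replicate 2 had a median of 1.68 at the 45 genes, against 1.57 over the 3335 conservative peaks with an entry in both replicates. It was highest at RpL37-1, where replicate 1 had 115 and replicate 2 had 26.7, and it was below 1 at RpS20 (35.3 and 47.6) and RpS28a (46.2 and 53.6).

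A summit within 100 bp was present in the set of replicate 1 at 40 of the 45 genes and in that of replicate 2 at 34. Both sets held it at 32 genes (71.1%), against 1694 of 3592 conservative peaks (47.2%). These shares are not of like sets. The first takes 1 promoter peak per gene, and the second takes all conservative peaks, with weaker ones and those away from promoters. The 8 genes found in replicate 1 only included RpL35, RpL37-1, RpL37A, RpS28a, RpS28b, RpS5a and RpS6, and the 2 found in replicate 2 only were RpL7-like and RpS20. RpS6 is the protein that the S6 kinase phosphorylates in response to growth signals; its signal was 137, with 93.2 in replicate 1 and 40.2 in replicate 2.

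Summits sat mostly just before the start. In the 38 genes whose own start was nearest, the median position was 42 bp upstream, 28 summits lay upstream and 27 lay within 100 bp of the start. The median over all protein-coding genes with a nearest summit was 37 bp upstream. A second summit lay in the window of 8 genes, RpL28, RpL31, RpLP0-like, RpS23, RpS28a, RpS30, RpS6 and RpS7, giving 53 distinct summits in all. At RpS28a the second one, 324 bp downstream with a signal of 311, was nearer to the start of Mgat2 and stronger than the 101 counted for the gene.

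**Figure D2:**
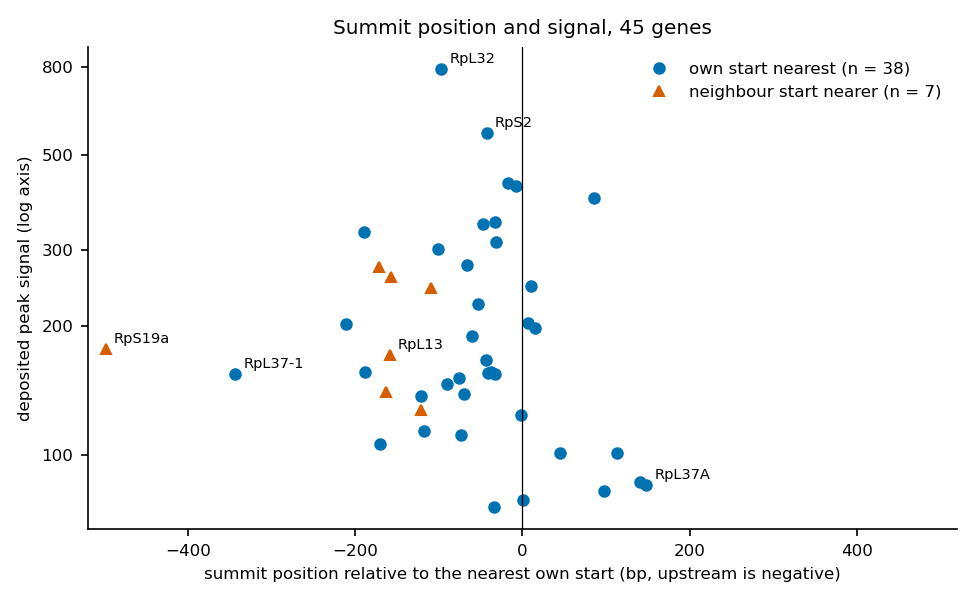
Position of the summit relative to the nearest own start (bp, upstream negative) against its signal (log axis) for the 45 genes; circles are the 38 genes whose own start is nearest and triangles the 7 whose summit lies nearer to a neighbour. All 7 triangles lie upstream, between 110 and 499 bp, and 27 circles lie within 100 bp of the start.

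In 7 genes the summit belonged by distance to a neighbour, and all 7 share a divergent promoter region with another protein-coding gene that starts within 1000 bp on the other strand. A neighbour start within 1000 bp follows from how this class was defined, but its strand does not. The same share over all protein-coding genes of this class was not counted. RpS25 had 260, with 157 bp to its own start and 91 bp to that of CG4820, and RpL41, the smallest ribosomal protein, had 245, with 110 bp to its own start and 72 bp to NaCP60E, a sodium channel gene. RpS19a had 177 at the far edge of the window, 19 bp from the start of Rok. Signals over the 7 genes ran from 127 to 275, and 6 of the 7 are described here.

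RpL13 had a signal of 171 with its summit 159 bp upstream and 75 bp from the start of Dref, the gene of the factor that binds TATCGATA. RpL24-like had 140, with 163 bp to its own start and 7 bp to CG5276. RpL29 had 127, with 122 bp to its own start and 0 bp to that of Sgf29, a subunit of the SAGA complex. Peak lists cannot say which of the paired genes a summit serves.

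Divergent neighbours were common in the family as a whole. A protein-coding gene started on the other strand within 1000 bp upstream of 54 of the 92 ribosomal protein genes (58.7%), against 34.2% of protein-coding genes. Among the 54 divergent ribosomal protein genes, 30 had a summit within 500 bp (55.6%), against 45.9% of divergent protein-coding genes. Among the 38 others, 15 had one (39.5%), against 16.4% of protein-coding genes with no divergent neighbour. The summits were therefore not limited to shared promoter regions.

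No difference between the subunits was detectable. A summit was present at 25 of 54 large subunit genes (46.3%) and at 20 of 38 small subunit genes (52.6%), a difference of -6.34 percentage points (Newcombe 95% interval -25.8 to 13.9). The own start was nearest in 20 large subunit genes (37.0%) and 18 small subunit genes (47.4%), a difference of -10.3 points (-29.6 to 9.66). In the replicates' own sets, the shares were 48.1% large and 47.4% small in replicate 1, and 40.7% large and 39.5% small in replicate 2. The median signal was 156 over the 25 large subunit genes and 172 over the 20 small subunit genes, and the ranges overlapped, from 75.8 to 791 and from 78.7 to 561. The first interval is wide enough to hold a difference of over 10 points either way.

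The next genes were picked by role after their values were known. Of the partners of the 5S RNA, RpL11 had a signal of 225 (145 in replicate 1 and 85.5 in replicate 2), while RpL5 had no summit within 5 kb. None of the stalk proteins RpLP0, RpLP1 and RpLP2 had a summit in the window. RpL3, which reaches the peptidyl transferase centre, and RpL10, which joins late in assembly, had none within 5 kb. RpS12, known in flies for its part in the competition between Minute and normal cells, had 155 (105 and 59.6 in replicate 1 and replicate 2), while RpS3, a protein of the mRNA entry site, had no summit in the window.

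Many paralogue pairs had a peak at only one copy, though how many depends on the set. The annotation gave 14 pairs, RpXa with RpXb, RpX-1 with RpX-2, and RpX with RpX-like. A summit within 500 bp was present at both copies in 2 pairs, at one copy in 11 and at neither in 1. The pairs with a summit at one copy numbered 7 without replicate 1, and likewise 7 when the peak interval had to cover a start. In the 9 pairs of proteins with over 60% identity (63.6% to 100%), it was 1 pair with both and 8 with one. With a summit at 48.9% of the 92 genes, pairs that differ would be frequent even among unrelated genes. No count over other paralogue pairs was made to set beside these. RpS28b stands in 2 of the 14 pairs. Gene pairs share ancestry and some share a chromosome region, and no test was made.

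RpS14a and RpS14b encode the same protein (100% identity over 151 residues) and stand in tandem on the X chromosome. RpS14b had a conservative signal of 167, with 97.2 in replicate 1 and 71.1 in replicate 2, and a summit 44 bp upstream. RpS14a had no conservative summit in the window, though a ranked entry lay 472 bp upstream of it. This entry was nearer to the divergent gene Dhdds, which starts 391 bp upstream of RpS14a. The signal of the entry was 163, of which replicate 1 had 97.3 and replicate 2 had 17.3. Its −log10 IDR was 0.21, far below the 2.00 that the conservative set asks for, and it was found in the replicate 1 and pooled sets.

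RpL34a, with 77.4% identity to RpL34b, had a signal of 302 in the conservative set, and the ranked entry at RpL34b had 41.1. RpS5a, with 78.3% identity to RpS5b, had 106 (78.5 in replicate 1 and 41.1 in replicate 2), and the ranked entry at RpS5b, a copy known for its use in the female germline, had 35.9. The promoters of these pairs were not alike: over 300 bases the identity was 46.8% between RpS14a and RpS14b, 41.7% between RpL34a and RpL34b, and 43.2% between RpS5a and RpS5b. The lines give the gene's strand from 150 bases before the canonical start to 10 from it on, to show what the copies share; capitals mark TATCGA or TATCGATA, which reads TCGATA where the core lies on the other strand. They lie at chrX:7933592-7933751 (RpS14a) and chrX:7934748-7934907 (RpS14b) on the plus strand, and at chr3R:26059258-26059417 (RpL34a), chr3R:9401193-9401352 (RpL34b), chrX:17148255-17148414 (RpS5a) and chr3R:14901554-14901713 (RpS5b) on the minus strand.
RpS14a: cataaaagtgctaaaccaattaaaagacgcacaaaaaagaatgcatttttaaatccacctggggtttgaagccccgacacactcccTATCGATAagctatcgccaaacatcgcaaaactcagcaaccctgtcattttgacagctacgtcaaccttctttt
RpS14b: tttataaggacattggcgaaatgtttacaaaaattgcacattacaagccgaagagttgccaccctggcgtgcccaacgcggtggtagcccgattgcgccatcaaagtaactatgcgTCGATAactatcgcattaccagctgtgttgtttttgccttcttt
RpL34a: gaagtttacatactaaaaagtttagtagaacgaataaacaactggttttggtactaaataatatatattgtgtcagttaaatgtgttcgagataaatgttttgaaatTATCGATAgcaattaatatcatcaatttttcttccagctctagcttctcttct
RpL34b: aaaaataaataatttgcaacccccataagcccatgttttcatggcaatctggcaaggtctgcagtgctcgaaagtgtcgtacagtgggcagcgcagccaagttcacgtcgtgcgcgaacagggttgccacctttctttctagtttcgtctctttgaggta
RpS5a: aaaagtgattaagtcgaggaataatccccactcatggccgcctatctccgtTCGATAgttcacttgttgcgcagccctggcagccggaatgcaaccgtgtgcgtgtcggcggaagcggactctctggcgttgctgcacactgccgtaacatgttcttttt
RpS5b: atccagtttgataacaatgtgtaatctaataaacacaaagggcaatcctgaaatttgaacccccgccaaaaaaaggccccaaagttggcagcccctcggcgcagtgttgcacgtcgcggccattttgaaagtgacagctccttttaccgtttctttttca
RpL34b and RpS5b, the copies without a conservative summit, hold no TATCGA in these windows, whereas RpS14a holds TATCGATA and has none either.

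The other pairs of high identity went the same way. RpS10b had a signal of 331 and no ranked entry lay in the window of RpS10a. RpL10Ab had 155 (78.5 in replicate 1 and 63.0 in replicate 2), and RpL10Aa had no entry. RpL37-1 had 154 (115 and 26.7 in replicate 1 and replicate 2), and RpL37-2 had no entry. RpS19a had the 177 near Rok described above, and RpS19b, which is known for germline expression, had no entry.

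The last 2 pairs of high identity differed. RpS15Aa and RpS15Ab stood at 97.7% identity. The conservative peak of RpS15Aa, 1 bp from its own start, had 78.7 (50.9 in replicate 1 and 37.7 in replicate 2). The ranked entry in the window of RpS15Ab had 98.3 (59.1 and 24.5) at a −log10 IDR of 1.79, just short of the threshold. That entry lay 50 bp upstream of RpS15Ab, and the divergent gene Lsm10 starts 36 bp upstream, so Lsm10 was nearer. RpS28a and RpS28b, at 81.5% identity, both had a summit, with 101 and 124. Each of these 4 genes holds TATCGA in its promoter.

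The -like genes are more distant relatives, with 16.4% to 38.4% identity to their partner, and some are not ribosomal proteins in the strict sense. RpLP0-like, whose yeast relative Mrt4 acts in large subunit assembly, had a signal of 203 (155 in replicate 1 and 65.7 in replicate 2). RpLP0 had only a ranked entry of 62.5, which lay 112 bp upstream. The divergent gene CG7130 starts 111 bp upstream of RpLP0 and was nearer to that entry. RpL24-like, the relative of the yeast assembly factor Rlp24, had the 140 near CG5276, and RpL24 had a ranked entry of 35.4. RpL7 had 248 (159 and 101) and RpL7-like had 114 (73.3 and 42.4), both in the conservative set. RpS28b had 124 and RpS28-like a ranked entry of 44.9, and neither RpL22, with a ranked entry of 55.4, nor RpL22-like, known from the testis, had a summit.

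**Figure D3:**
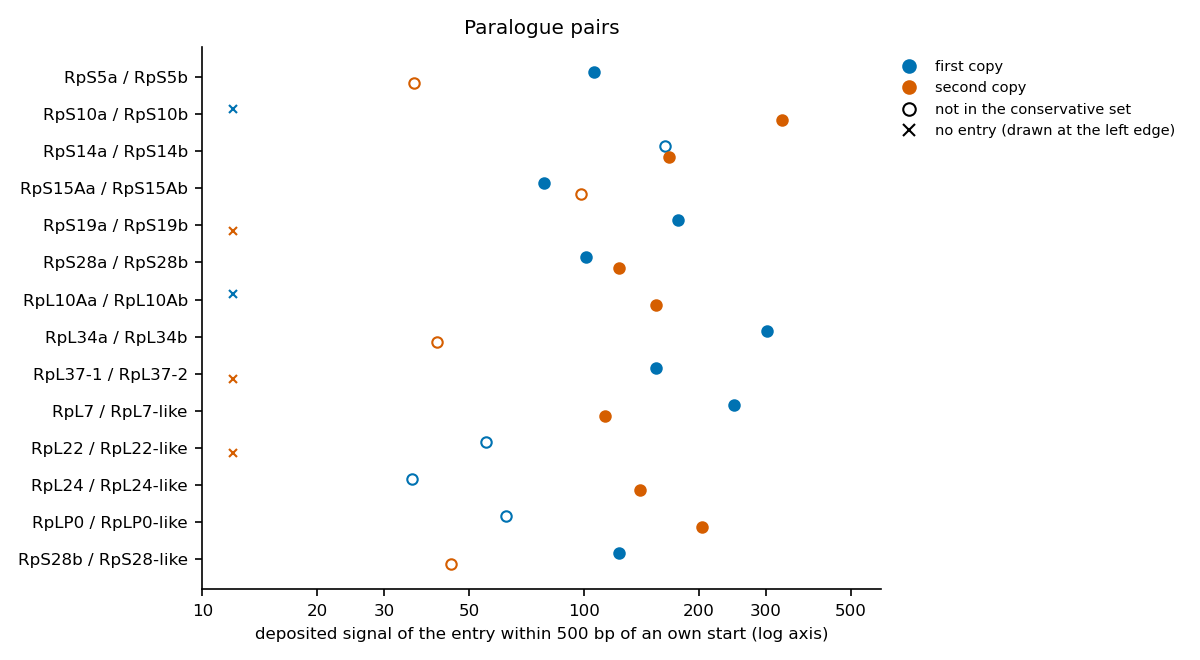
Signal (log axis) of the entry within 500 bp of an own start for each copy of the 14 paralogue pairs; filled points are in the conservative set, open points are ranked entries outside it, and crosses at the left edge mark copies with no entry. Filled points stand at both copies in 2 pairs (RpS28a and RpS28b, RpL7 and RpL7-like) and at one copy in 11. Entries are drawn also where another gene's start is nearer, such as at RpS19a, RpL24-like, RpS14a, RpS15Ab and RpLP0.

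TATCGA and its longer form TATCGATA were more frequent at genes with a summit than at those without. Promoters were read from 250 bp before to 50 bp after the canonical start, on both strands. TATCGA was found in 48 of 92 ribosomal protein promoters (52.2%), against 27.0% of all protein-coding promoters. It was present at 37 of the 45 genes with a summit (82.2%) and at 11 of the 47 without one (23.4%), against 57.7% and 16.0% of protein-coding genes with and without a summit. The whole TATCGATA, whose matches are also matches of TATCGA, was present in 28 ribosomal protein promoters (30.4%), against 8.94% of protein-coding promoters, at 25 of the 45 with a summit and at 3 of the 47 without. Such matches describe letters in a window and do not show which factor is there.

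Read the other way, 37 of the 48 ribosomal protein genes with TATCGA had a summit (77.1%), against 56.4% of protein-coding genes with it. Of the 44 without it, 8 had a summit (18.2%), against 15.4% of protein-coding genes without it. With TATCGATA, 25 of 28 had a summit (89.3%), against 76.8%. The subunits held TATCGA alike, at 51.9% of large and 52.6% of small subunit genes.

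Genes that broke the pattern can be named. A summit without TATCGA in the promoter was seen at RpL11, RpL29, RpL31, RpL35, RpL8, RpS20, RpS23 and RpS27A, of which RpS23, a protein of the decoding centre, had the strongest, with a signal of 277 (183 in replicate 1 and 69.8 in replicate 2). TATCGA without a summit was seen at RpL10, RpL12, RpL14, RpL23, RpL37-2, RpL39, RpL7A, RpLP0, RpS14a, RpS15Ab and RpS27. RpL39, RpS14a and RpS15Ab among these hold the whole TATCGATA.

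The pyrimidine initiator marked the family but not the peaks. The sequence CTTTT within 10 bp of the canonical start was found at 38 of 92 ribosomal protein genes (41.3%), against 4.15% of protein-coding genes, at 15 of the 45 with a summit and at 23 of the 47 without one. Since the run often sat further in, a broader search was added after the data were seen, for CTTT with a T or C on each side of it, on the gene's strand and with the C of CTTT within 20 bp of the start. It found 63 of 92 ribosomal protein genes (68.5%), against 5.46% of protein-coding genes, and in these 63 the C lay a median of 5 bp after the annotated start (quartiles 2.5 and 6.5). The share was 68.9% at genes with a summit (31 of 45) and 68.1% at genes without one (32 of 47).

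**Figure D4:**
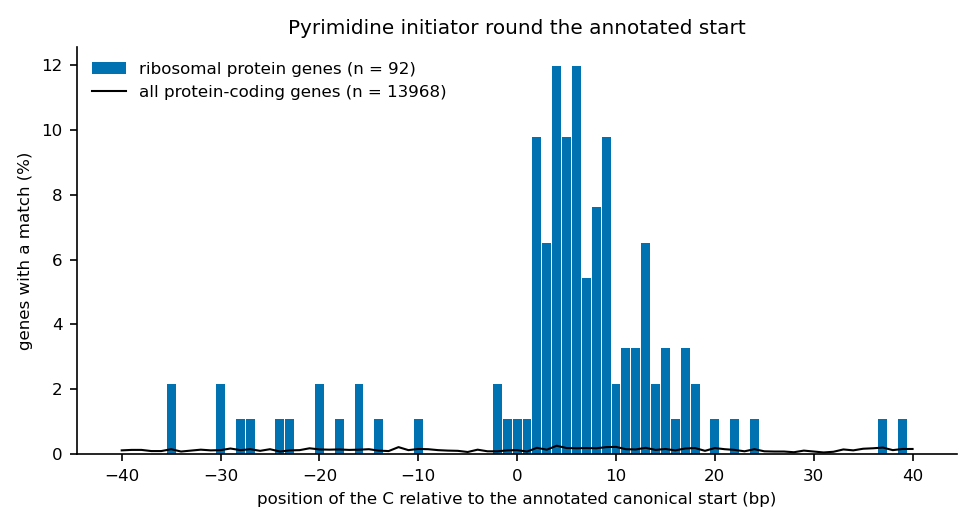
Share of genes (%) with a C of a pyrimidine initiator at each position around the annotated canonical start, for the 92 ribosomal protein genes (bars) and all 13968 protein-coding genes (line); a gene with repeats counts at several positions. The bars gather in the bases just after the start, around the median of 5 bp, and the line stays near 0 throughout.

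Both features together sorted the genes into classes. With TATCGA and the broader initiator, 26 of 32 ribosomal protein genes had a summit (81.2%, Wilson 95% interval 64.7 to 91.1), against 56.9% of the protein-coding genes of that class, which include them. With TATCGA alone it was 11 of 16 (68.8%, 44.4 to 85.8), against 56.4%. With the initiator alone it was 5 of 31 (16.1%, 7.09 to 32.6), against 15.4%, and with neither 3 of 13 (23.1%, 8.18 to 50.3), against 15.4%. At starts with the initiator, the intervals with and without TATCGA do not meet; at starts without it, the share was higher with TATCGA but the intervals overlap, and these classes are small.

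**Figure D5:**
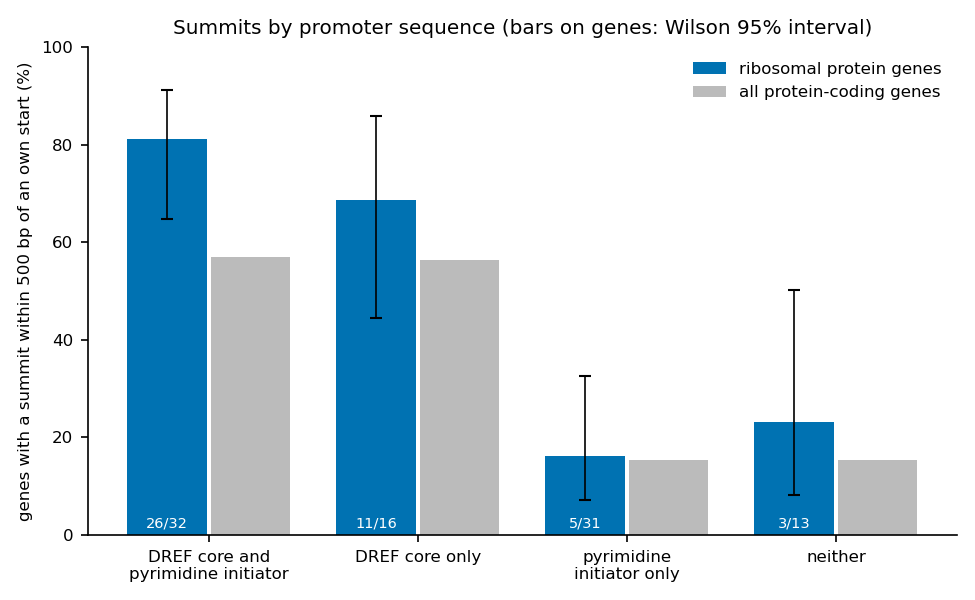
Share of genes (%) with a summit within 500 bp of an own start, by promoter sequence, for ribosomal protein genes (left bar of each pair, with Wilson 95% intervals and counts) and all protein-coding genes (right bar); the DREF core is TATCGA. The left bars reach 81.2% and 68.8% with the core, and 16.1% and 23.1% without it.

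Around the summits themselves, TATCGA lay within 100 bp at 30 of 45 genes (66.7%). The share was 53.8% over the 3086 conservative summits that lie at a protein-coding promoter. At 22 of the 30 genes, the centre of the nearest match was within 50 bp of the summit. TATCGA was found near 28 of the 35 summits at or above the median signal (80%), against 76.1% of 1687 such promoter summits. Below the median it was found near 2 of the 10 (20%), against 26.9% of 1399. In the promoters of the same genes the split was smaller, with TATCGA at 30 of the 35 (85.7%) and 7 of the 10 (70%). TATCGATA was found at 18 (40%), against 24.4%. The homeodomain-type TAATTA was found at 4 (8.89%), against 11.9%, and GAGAG, the sequence of the GAGA factor, at 1 (2.22%), against 22.7%.

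In the promoters, TAATTA was found at 22 of 92 ribosomal protein genes (23.9%), against 20% of protein-coding genes, at 9 of the 45 with a summit and at 13 of the 47 without one. GAGAG was found at 16 (17.4%), against 30.2%, at 9 with a summit and 7 without. GGTCACAC, the sequence called motif 1 of housekeeping promoters, was found at 13 (14.1%), against 7.52%, at 6 with a summit and 7 without. The letters TATAAA, read on the gene's strand, were found at 30 (32.6%), against 32.2%, at 14 with a summit and 16 without. They were searched anywhere in the promoter window, so a match need not be a TATA box at its usual place. For these 4 sequences the counts with and without a summit thus lay close together, whereas for TATCGA they lay apart.

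Genes without a conservative summit were not all without a ranked entry. Of these 47 genes, 35 had an entry in the ranked list of both replicates within 500 bp of a start, with a median signal of 44.9, and 11 of these had a −log10 IDR of 1 to 2. No entry was listed there for RpL10, RpL10Aa, RpL15, RpL21, RpL22-like, RpL35A, RpL37-2, RpL38, RpL9, RpS10a, RpS19b and RpS3A. The sets of single replicates held a summit for 4 of the 47 in replicate 1 (RpL27A, RpL30, RpLP2 and RpS14a) and for 2 in replicate 2 (RpL30 and RpS18). The same counts over protein-coding genes without a conservative summit were not made, so these have no background beside them. Entries were counted also where the start of another gene was nearer.

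The strongest of these entries was at RpL13A, with a signal of 506 (319 in replicate 1 and 182 in replicate 2) and a −log10 IDR of 5. Its summit lay 284 bp upstream and 65 bp from the start of Spec2, and it is 1 of 124 ranked entries on the arms that pass the IDR of 0.01 and are not in the conservative set. A second such entry lay 81 bp upstream of RpL13A with a signal of 64.9, where replicate 1 had 47.9 and replicate 2 had no entry within 200 bp. Only RpL13A is gained if these entries are added.

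RpL30 had an entry of 137, whose nearest entries were 29.4 in replicate 1 and 75.0 in replicate 2; a stronger one of replicate 1 in the same window had 82.1, so neither replicate can be called the higher. The −log10 IDR of the entry was 1.82. A summit within 500 bp of a start of RpL30, not always at that entry, stood in both replicates' own sets and in the pooled set. RpL14 had 83.0 (44.7 in replicate 1 and 13.2 in replicate 2), with a −log10 IDR of 0.16. That entry lay 109 bp upstream of RpL14, and the divergent gene Nelf-E starts 127 bp upstream, so Nelf-E was nearer. Of the 5 strongest entries outside the conservative set, those at RpS14a, RpL30, RpS15Ab and RpL14 missed the IDR threshold and that at RpL13A passed it. By distance, those at RpS14a, RpS15Ab, RpL14 and RpL13A lay nearer to the start of another gene than to the own start.

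By chromosome arm, the share of ribosomal protein genes with a summit was highest on X, with 11 of 14 (78.6%), against 30.7% of protein-coding genes there. It was 8 of 19 on 2L (42.1%, against 23.7%), 10 of 21 on 2R (47.6%, against 27.2%), 5 of 14 on 3L (35.7%, against 25.7%) and 11 of 23 on 3R (47.8%, against 26.5%), and 0 of 1 on chromosome 4. Off the X it was 34 of 78 (43.6%), against 25.7% of protein-coding genes. The X genes also held TATCGA more often, 12 of 14 beside 36 of 78 off the X, and the part of that in the result was not tested. The X genes without a summit were RpL22, RpL7A and RpS14a.

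Many ribosomal protein genes of flies carry small nucleolar RNAs in their introns. Of the 28 that do in this annotation, 12 had a summit (42.9%), and of the 64 that do not, 33 had one (51.6%). The same split over all protein-coding genes was not made, so these shares have no background beside them. Gene length was also close, with a median of 1333 bp in genes with a summit and 1284 bp in genes without one.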

How the data were processed

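Chromatin from whole embryos 0 to 18 h old was sonicated to 200 to 800 bp per the labels, and peaks were deposited on dm6. How the authors aligned reads and called peaks is not given in the sources used here. In the deposited thresholded files the score runs from 830 to 1000 (lower in the ranked lists), the signal is the peak caller's enrichment on an unstated scale, and the −log10 of the global IDR stands in the ranked list. The conservative set (3595 peaks, 3592 on the arms) was the main set, and every entry in it had a −log10 IDR of at least 2.00. The 4 columns of paired signals in the ranked lists of both replicates carry no sample name and were left unused; a replicate's signal came from its own ranked list (nearest summit within 200 bp).

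Gene models were Ensembl release 115, on the same assembly as dm6, with sequence from the RefSeq copy. Summits were assigned to starts within 500 bp over all 13968 protein-coding genes, and the nearest protein-coding start decided between own and neighbour. For the 1 gene without a canonical transcript, the first transcript was used. Protein identity came from global alignment of translated coding sequences (gap opening -2, extension -0.5). Shares have Wilson intervals and differences of shares Newcombe intervals, both 95%, which cover the number of genes only. No p-value was computed: the series has 1 group, and the members and lists were chosen with earlier results of these data known. Counts were set beside the same counts over all protein-coding genes, which include the members. The assignment was tested on simulated summits.

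Named genes were the 10 with the strongest summit, all members of paralogue pairs, those whose summits lie nearer a neighbour, the 5 with the strongest ranked entry among those without a summit, and the 3 just inside and outside the window. Some results that this rule names are not reported here. Other genes named were chosen after their values were seen. Alternatives were windows of 250 and 1000 bp, the other sets, each replicate alone, peaks at or above the median signal, an IDR of 0.001, the peak interval over a start, and RefSeq starts; the added ones were chosen after seeing the data. Python 3.11.15, numpy 2.4.6, pandas 2.3.3, scipy 1.17.1, Biopython 1.88 and matplotlib 3.10.9 were used.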

Additional observations from a re-analysis of the deposited data

How the results depend on the processing

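Of 72 values recomputed under other settings, 66 stayed within 1.5 times the count, or within the interval of the median, and 6 moved. These are counts and medians, which have no direction to reverse. The large minus small subunit difference in share, not among the 72, was -6.34 percentage points in the main set. It was 0.78 points in replicate 1 and 1.27 points in replicate 2. The number of ribosomal protein genes with a summit was 45 in the main set and 36 to 50 under the alternatives (43 at 250 bp, 50 at 1000 bp, 38 at an IDR of 0.001, 36 at or above the median signal). Without 1 replicate it was 37 to 44. The median signal of 167 was 72.9 to 110 without 1 replicate, since each replicate's own signals are lower than the combined one. Pairs with a summit at one copy numbered 11, and 7 to 10 without 1 replicate, and 7 when the peak interval had to cover a start. The initiator count among genes with a summit was 15, and 31 with the broader search added after seeing the data. TATCGA without a summit fell to 3 genes, against 11, when TATCGATA was asked for, a longer word that matches less often. No paired analysis was possible because the series has 1 group, with no second group to pair by replicate number. Depth is unknown, so an absent summit cannot be told from one too weak to call, and signals are compared within 1 set.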

Other observations

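Genes that build or serve the ribosome were read the same way, from lists chosen with earlier results known. Both ribosomal proteins that carry other symbols had a summit in the 500 bp window: sta, the small subunit protein SA, with a signal of 134, and Rack1, a scaffold protein of the small subunit, with 64.2. Of 7 translation elongation factors, 2 had one, eEF1gamma with 312 and eEF2 with 222, and the highly expressed eEF1alpha1 had none. Of 30 ribosome assembly factors, 18 had one (60%, against 26.5% of all protein-coding genes), among them Bka with 492, RIOK2 with 451 and Nlp with 302. The nucleolar methyltransferase Fib and its partner nop5 had none, whereas Nop56 of the same list had one, with 94.0. Of 10 RNA polymerase I subunit names, 7 matched the annotation and 3 of these had a summit, Polr1D with 290, Polr1E with 135 and Polr1B with 108.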
